A study of Setaria viridis with 9 samples.

Results

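Leaf libraries of Setaria viridis low in the transcript of NdhO were compared with libraries low in the transcript of PGR5, 3 against 3, which makes 6 of the 9 libraries in the series. The sets were chosen on measured values: CPM, which are counts scaled by the column total of each library, were under 100 for NdhO (LOC117858157) in the libraries labelled WT 1, pgr5 2 and pgr5 3, and under 100 for PGR5 (LOC117861247) in those labelled WT 2, WT 3 and ndhO 1. The other 3 libraries, labelled ndhO 2, ndhO 3 and pgr5 1, were high in both transcripts and are given for reference. All 3 libraries labelled ndhO were high in NdhO, all 3 labelled pgr5 were high in PGR5, and each library labelled WT was low in 1 of the transcripts, so the transcripts go against the labels and the labels may be wrong for some libraries, which was not tested. Library names below are labels only. Because the sets cut across the genotype labels, they are called NdhO-low and PGR5-low here and never mutants. A test between them describes which genes go with this split of the libraries, not what a genotype does.

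All plants were of the cultivar ME034V-1, a C4 grass used as a model for maize and sorghum. The labels give 3 genotypes with 3 biological replicates each: unedited wild type (WT), plants edited to carry null alleles of NdhO (ndhO), and plants edited to carry null alleles of PGR5 (pgr5). How many independently edited lines stand behind a label, and whether replicates share a parent, is not stated in the labels. Every group was grown at 380 µmol of light per square metre and second for 16 h a day, at 28°C by day and 22°C at night. All were sampled 3 to 4 weeks after sowing from the youngest fully expanded leaves. Light and tissue were therefore shared by all sets. Age is given only as this range, not for each library, so the sets may differ in age within it.

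The table held 17987 genes, with column totals of 12334320 to 18407334 counts in the NdhO-low libraries, 11606570 to 14015773 in the PGR5-low libraries and 14209173 to 18837265 in the libraries high in both. Spearman correlations across genes, which share depth and gene length effects, ran from 0.940 to 0.960 within the NdhO-low set, from 0.952 to 0.963 within the PGR5-low set, from 0.976 to 0.977 within the third set, and from 0.921 to 0.966 between NdhO-low and PGR5-low libraries. The 2 low sets were therefore more varied inside than the third, and the closest pair across them, pgr5 2 and WT 3, was closer than any pair within either. The leaf label was checked against C4 markers, and the gene for pyruvate, phosphate dikinase 2 (LOC117850669), a mesophyll enzyme that renews phosphoenolpyruvate for the carbon pump, stood at 35180.0, 37294 and 31190.0 CPM in the NdhO-low and 34069, 51717 and 35721 CPM in the PGR5-low libraries.

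NdhO and PGR5 belong to separate routes of cyclic electron flow, in which electrons leave photosystem I and return to the plastoquinone pool, so that a proton gradient and ATP are made without net NADPH. The NDH complex, an enzyme of the thylakoid membrane related to NADH dehydrogenase, takes electrons from ferredoxin, and NdhO is among its subunits. PGR5 is a small thylakoid protein that acts with its membrane partner PGRL1. C4 leaves need extra ATP to run their carbon pump, and in NADP-malic enzyme grasses such as Setaria the NDH complex is known to be abundant in the bundle sheath, the cells around the veins where CO2 is released and fixed again.

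Values below are listed in the order WT 1, pgr5 2, pgr5 3 for the NdhO-low set, WT 2, WT 3, ndhO 1 for the PGR5-low set and ndhO 2, ndhO 3, pgr5 1 for the set high in both. NdhO stood at 45.9, 21.2 and 48.5 CPM in the NdhO-low libraries, at 585, 242 and 255 CPM in the PGR5-low libraries and at 417, 426 and 419 CPM in those high in both. PGR5 stood at 389, 259 and 389 CPM in the NdhO-low libraries, 44.1, 45.1 and 39.7 CPM in the PGR5-low libraries and 299, 323 and 285 CPM in the third set. These values chose the sets and are a description only. The members nearest the threshold of 100 CPM were pgr5 3 for NdhO and WT 3 for PGR5 on its low side, and WT 3 for NdhO and pgr5 2 for PGR5 on its high side, so that thresholds of 50 or 200 CPM gave the same sets. The nearest genes with counts on either side of NdhO and PGR5 in the RefSeq gene table overlapped between the sets. Next to NdhO, a phosphatidylserine decarboxylase gene (LOC117856955) stood at 25.5, 25.9 and 21.9 against 24.3, 24.6 and 27.3 CPM, and beyond 1 gene without counts on the other side, PEN-2 (LOC117858158) at 13.5, 15.8 and 13.9 against 13.2, 16 and 14.6 CPM. Next to PGR5, the histone methyltransferase gene SUVR4-like (LOC117861243) stood at 16.9, 17.8 and 13.8 against 13.9, 14.8 and 14 CPM, and beyond 1 gene without counts on the other side, the peroxisomal membrane protein gene PMP22 (LOC117861245) at 8.64, 11 and 10.3 against 6.08, 10.5 and 11.9 CPM.

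**Figure D1:**
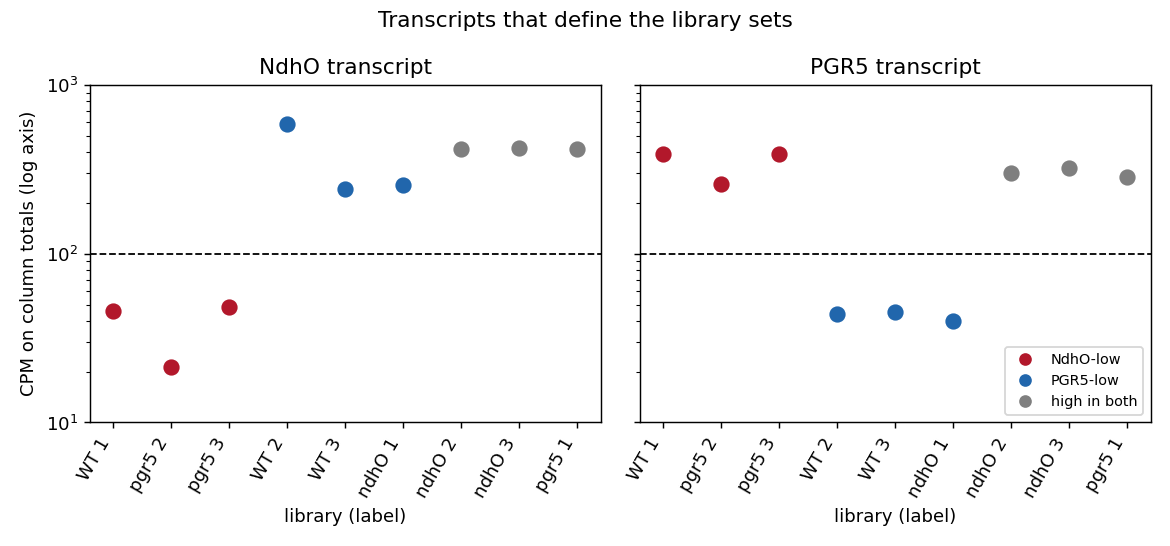
NdhO (left) and PGR5 (right) in CPM on a log axis for each of the 9 libraries, coloured by set, with the threshold of 100 CPM as a dashed line. The NdhO-low libraries lie between 21.2 and 48.5 CPM for NdhO, and the PGR5-low libraries between 39.7 and 45.1 CPM for PGR5.

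Few genes separated the sets, and those with a known function were mostly lower in the NdhO-low libraries. They included a florigen-like gene, fermentation and glycolysis enzymes, cysteine proteases, an indole monooxygenase and cell wall enzymes. A calcium sensor, a cytochrome P450 and a chromatin protein were higher. edgeR's quasi-likelihood test with Benjamini-Hochberg adjustment called 15 of 17984 genes higher (0.0834%) and 17 lower (0.0945%) in NdhO-low than in PGR5-low libraries at an adjusted p of 0.05, and 1846 genes (10.3%) had an unadjusted p under 0.05. In all 32 called genes all 3 libraries of a set lay above all 3 of the other. Over all genes, this was so for 1254 genes with the NdhO-low libraries above (6.97%) and 1050 with them below (5.84%). Of the called genes, 12 of the higher and 4 of the lower carry a description that calls them uncharacterized.

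The calls depended on the tool and on single libraries. DESeq2 called 139 genes higher and 195 lower, and limma-voom 7 and 14, which included 18 of the 32. An edgeR fit of only the 6 libraries of the sets called 8 higher and 3 lower, among them 9 of the 32, all uncharacterized, so that none of the called genes with a known function described below passed in it. With the genotype label, which the transcripts go against, as a term beside the set, 0 genes were called by edgeR (lowest adjusted p = 0.102), with 1093 at an unadjusted p under 0.05. Of the 32 genes, 12 were called again without WT 1, 20 without WT 2, 20 without WT 3, 8 without ndhO 1, 29 without pgr5 2 and 9 without pgr5 3, while leaving out ndhO 2, ndhO 3 or pgr5 1 kept 16, 17 and 18. Leaving out pgr5 2 raised the counts to 58 higher and 53 lower. With any single library left out, 6 genes were still called, all uncharacterized and all at 0 counts in the NdhO-low or the PGR5-low libraries. All 32 kept their direction in all 20 alternatives. Among these, the fit without a filter and the sets at 50 or 200 CPM repeat the main fit and could not differ.

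The libraries high in both help to place the calls. In 17 of the 32 called genes they stood apart from the NdhO-low libraries and overlapped the PGR5-low libraries. In 10 they stood apart from both sets, and in 5 they overlapped the NdhO-low and stood apart from the PGR5-low libraries. Differences below are log2 values from the fit, NdhO-low minus PGR5-low, with standard errors (SE), and the roles under which genes are grouped were assigned after their values were seen.

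The florigen-like gene had the largest difference among called genes with a known function and at least 5 CPM in the higher set. LOC117850113 is described as HEADING DATE 3A-like, after the rice protein that is made in leaves and moves to the shoot tip to induce flowering. It stood at 1.09, 0.73 and 0.293 CPM in the NdhO-low libraries, 9.31, 12.3 and 7.42 CPM in the PGR5-low libraries and 20.5, 16 and 44.3 CPM in those high in both. The 3 sets did not overlap, with the NdhO-low libraries lowest and the libraries high in both highest. The difference was -3.78 (SE 0.50, edgeR adjusted p = 0.0201). Over the alternatives its adjusted p ran from 1.75e-10 with DESeq2 to 0.406 with limma-voom, which did not call it. In bulk leaf tissue, fewer cells expressing a gene and less RNA per cell cannot be told apart.

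Other genes of the florigen family, a list made after values were seen, went both ways, and 1 of its 9 tested genes was called lower and 0 higher. A second HEADING DATE 3A-like gene (LOC117855226) had 0 counts in all 3 NdhO-low libraries, 21, 42 and 111 counts in the PGR5-low libraries and 140, 46 and 348 counts in those high in both, and did not pass the test (edgeR adjusted p = 0.111). A FLOWERING LOCUS T-like gene (LOC117844211) showed the opposite order, at 2.66, 4.38 and 5.56 CPM against 0.293, 0 and 0 CPM, and did not pass it either (edgeR adjusted p = 0.231). The libraries of both genes did not overlap between the sets. A RICE FLOWERING LOCUS T 1-like gene (LOC117851868), named for the second rice florigen, stood at 8.04, 2.43 and 2.87 against 1.83, 1.12 and 1.43 CPM without passing. The most abundant member, HEADING DATE 3B-like (LOC117856904), overlapped at 68.9, 73.2 and 63.4 against 57.5, 67.6 and 68.4 CPM. Plants of both sets were grown under the same day length.

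Fermentation and glycolysis followed. Alcohol dehydrogenase 2 (LOC117834143), which turns acetaldehyde into ethanol and regenerates NAD+, stood at 6.68, 8.11 and 4.04 CPM in the NdhO-low, 21.1, 21.2 and 31.7 CPM in the PGR5-low and 24, 21.6 and 21.6 CPM in the libraries high in both. Its NdhO-low libraries were the 3 lowest of the 9, and the difference was -2.0 (SE 0.26, edgeR adjusted p = 0.0162). Enolase 1 (LOC117852367), which forms phosphoenolpyruvate late in glycolysis, stood at 156, 222 and 244 CPM in the NdhO-low libraries, 541, 442 and 790.2 CPM in the PGR5-low libraries and 517, 466 and 528 CPM in the third set. The NdhO-low libraries were again the 3 lowest, ndhO 1 the highest, and the difference was -1.52 (SE 0.24, edgeR adjusted p = 0.0373).

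The wider list of 41 glycolysis and fermentation genes, also made after values were seen, had 0 genes called higher and 2 called lower, these 2. Its median difference was -0.30, beside 0.02 over all genes. In 9 of the 41 genes (22.0%) the NdhO-low libraries lay below the PGR5-low libraries, and in 0 above, beside 5.84% and 6.97% over all genes. A subunit gene of pyrophosphate-fructose 6-phosphate 1-phosphotransferase (LOC117853801), a cytosolic enzyme that can replace phosphofructokinase, stood at 32.1, 34.1 and 34.2 against 51.3, 57.9 and 62.2 CPM and missed the threshold (edgeR adjusted p = 0.0689). A cytosolic lactate dehydrogenase gene (LOC117849180) stood at 6.14, 5.03 and 4.21 against 7.4, 9.22 and 8.49 CPM and also missed it (edgeR adjusted p = 0.363). The list's per-library medians, as log2 deviations from each gene's mean over 9 libraries, ran from -0.13 to -0.10 in the NdhO-low and from 0.09 to 0.26 in the PGR5-low libraries.

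A pair of called genes, each named for a protein with a role in defence, was lower in the NdhO-low libraries. An indole-2-monooxygenase-like gene (LOC117859916) stood at 37.4, 58.5 and 34.1 CPM in the NdhO-low libraries, 157, 175 and 390.4 CPM in the PGR5-low libraries and 225, 247 and 197 CPM in those high in both. In maize, indole-2-monooxygenase is a cytochrome P450 at the entry to the benzoxazinoids, which deter insects and fungi. ndhO 1 was the highest library and the 3 NdhO-low libraries were the lowest, a difference of -2.48 (SE 0.34, edgeR adjusted p = 0.0277). Of 19 genes on a benzoxazinoid list made after values were seen, 1 was called lower and 0 higher. In 2 (10.5%) the NdhO-low libraries lay above the PGR5-low and in 2 (10.5%) below, beside 6.97% and 5.84% over all genes. A DIBOA-glucoside dioxygenase BX6-like gene (LOC117847222), named for a later maize step, stood at 26.2, 22.4 and 24.5 against 12.3, 17.5 and 17.7 CPM, the opposite order, without passing (edgeR adjusted p = 0.282). So did an indole-3-glycerol phosphate lyase-like gene (LOC117836952), at 132, 119 and 107 against 39.4, 88.9 and 74.7 CPM (edgeR adjusted p = 0.321).

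TNF receptor-associated factor homolog 1a-like (LOC117847608) is named for an Arabidopsis adaptor protein that limits the amount of immune receptors. It stood at 57.2, 58.9 and 44.7 against 98.4, 119 and 105 CPM, with the third set at 79, 96.1 and 100.2 CPM. The NdhO-low libraries were below all others, with a difference of -1.02 (SE 0.14, edgeR adjusted p = 0.0201).

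Both called proteases were ervatamin-B-like genes, members of the papain family of cysteine proteases. LOC117866690 stood at 6.9, 6.0 and 3.28 CPM in the NdhO-low, 17.1, 25.4 and 25.8 CPM in the PGR5-low and 24.8, 28.4 and 33.8 CPM in the libraries high in both. LOC117843528 stood at 12, 8.59 and 6.85 CPM in the NdhO-low libraries, 20.8, 31.3 and 24.3 CPM in the PGR5-low libraries and 15.1, 18.9 and 24.6 CPM in the third set. The NdhO-low libraries were the 3 lowest of the 9 for each gene. The differences were -2.09 (SE 0.26, edgeR adjusted p = 0.0143) and -1.49 (SE 0.24, edgeR adjusted p = 0.049), and the second call was lost with any single library left out. Among 13 cysteine protease genes, a list made after values were seen, 2 were called lower and 0 higher. The abundant cysteine proteinase 2 (LOC117844542) overlapped, at 381, 641 and 437 against 536, 663 and 739 CPM.

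A pair of called genes named for cell wall enzymes was also lower, and no list of cell wall genes was made. Pectinesterase 31 (LOC117839032), which removes methyl groups from pectin, stood at 42.9, 70.7 and 49 CPM in the NdhO-low, 141, 121 and 144 CPM in the PGR5-low and 174, 167 and 200.2 CPM in the libraries high in both. The 3 sets did not overlap and the NdhO-low libraries were lowest, with a difference of -1.34 (SE 0.19, edgeR adjusted p = 0.0212). Glucuronoxylan 4-O-methyltransferase 1-like (LOC117863703), which methylates the side chains of xylan, stood at 16.2, 17.5 and 9.95 CPM in the NdhO-low libraries, 33.1, 30.3 and 38.6 CPM in the PGR5-low libraries and 27.4, 26.6 and 25.9 CPM in the third set. The libraries high in both lay between the other sets, and the difference was -1.25 (SE 0.20, edgeR adjusted p = 0.049). It was the only called gene of the 37 on the list of lignifying vascular tissue, whose other members had mixed directions and a median of 0.40, which was -0.33 without pgr5 3.

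Ion transport and calcium signalling were represented by a gene in each direction. Calcineurin B-like protein 7 (LOC117854380), a calcium sensor of the family that activates CIPK protein kinases, stood at 203, 172 and 187 CPM in the NdhO-low libraries, 90.8, 66.7 and 66.7 CPM in the PGR5-low libraries and 42.6, 39.8 and 37.7 CPM in those high in both. The 3 sets did not overlap, the NdhO-low libraries were highest, and the difference was 1.3 (SE 0.17, edgeR adjusted p = 0.0201). Of the 11 calcineurin B-like genes tested, a list made after values were seen, 1 was called higher and 0 lower, and calcineurin B-like protein 6 (LOC117864057) stood in the opposite order at 31.9, 29 and 27.2 against 36.7, 38.1 and 34.5 CPM (edgeR adjusted p = 0.451). The putative chloride channel-like gene CLC-g (LOC117833143), of a family that moves anions across membranes, stood at 10.6, 7.38 and 4.39 CPM in the NdhO-low libraries, 20.5, 31.5 and 34.5 CPM in the PGR5-low libraries and 14.6, 15 and 12.2 CPM in the third set. The libraries high in both lay between the sets, and the difference was -1.96 (SE 0.29, edgeR adjusted p = 0.0313).

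In a pair of called genes named for chromatin proteins the PGR5-low libraries, not the NdhO-low, stood apart. The lysine-specific demethylase gene JMJ25 (LOC117837736), which belongs to the jumonji family that removes methyl groups from histones, stood at 89.4, 104 and 79.2 CPM in the NdhO-low, 166, 242 and 199 CPM in the PGR5-low and 77.3, 85.8 and 94.7 CPM in the libraries high in both. The PGR5-low libraries were above all 6 others, with a difference of -1.17 (SE 0.15, edgeR adjusted p = 0.0143). The gene for DNA-binding protein MNB1B-like (LOC117865750), named for a maize high-mobility-group protein, stood at 90.0, 103 and 113 CPM in the NdhO-low libraries, 50.2, 50.5 and 56.6 CPM in the PGR5-low libraries and 86.1, 85 and 93.6 CPM in the third set. Here the PGR5-low libraries were below all 6 others, with a difference of 0.94 (SE 0.13, edgeR adjusted p = 0.0201).

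Other called genes belonged to growth and sulfur metabolism. Cytochrome P450 78A9-like (LOC117862054), of a family that affects organ size in Arabidopsis and rice, stood at 73.8, 65.6 and 63.6 against 37.8, 32.7 and 29.5 CPM, with the third set at 41.5, 45.8 and 38.9 CPM. The NdhO-low libraries were the 3 highest, with a difference of 1.0 (SE 0.15, edgeR adjusted p = 0.0366). The persulfide dioxygenase gene ETHE1 homolog (LOC117859150), whose mitochondrial enzyme oxidises sulfur released from cysteine, stood at 49.1, 37.1 and 41.9 against 78.2, 80.3 and 98.7 CPM, with the third set at 57.6, 60.9 and 57.7 CPM. The sets did not overlap and the NdhO-low libraries were lowest, with a difference of -1.02 (SE 0.14, edgeR adjusted p = 0.0201). An SRG1-like dioxygenase gene (LOC117864467), outside the rule for named genes because it was under 5 CPM, had 0 counts in every NdhO-low library, 50, 12 and 55 counts in the PGR5-low libraries and 40, 26 and 28 counts in those high in both (edgeR adjusted p = 0.0462). Against a floor of 3 counts over the NdhO-low set, it was at least 47.5-fold lower there.

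**Figure D2:**
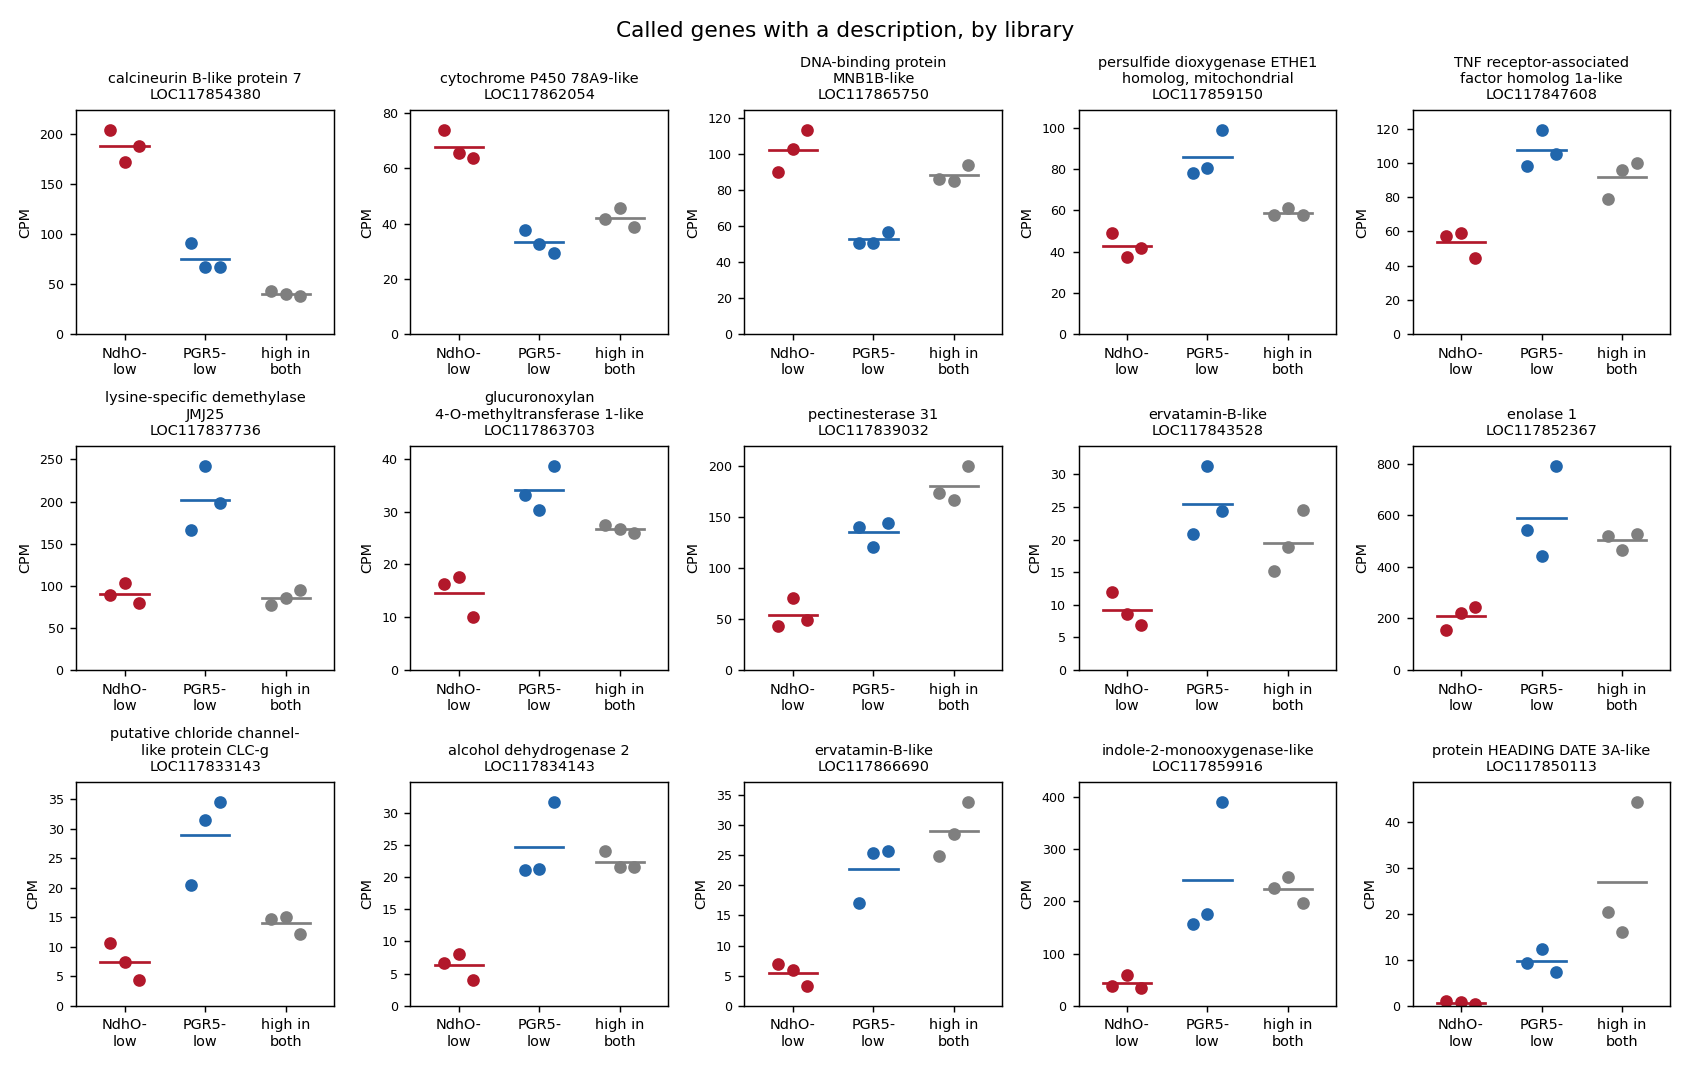
CPM of the 15 called genes with a description and at least 5 CPM in the higher set, 1 point per library and a bar at the mean of 3 libraries, for the NdhO-low, PGR5-low and high-in-both sets. In each panel the NdhO-low and PGR5-low points do not overlap; HEADING DATE 3A-like is at most 1.09 CPM in the NdhO-low libraries.

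A separate group of genes was present in 1 set and at 0 counts in the other. Of 17984 genes tested, 32 had 0 counts in all 3 PGR5-low libraries while each NdhO-low library had at least 10, and 10 of them were called. The reverse held for 14 genes, 2 of them called. Column totals reached 18407334 counts in the NdhO-low and 14015773 in the PGR5-low libraries, and a minimum of 10 counts is easier to meet at greater depth. The part of depth in these numbers was not tested. Of the 32 genes, 23 also had 0 counts in all 3 libraries high in both, so their counts came from WT 1, pgr5 2 and pgr5 3 alone among the 9 libraries. Of the 14 genes, 6 were likewise at 0 in the libraries high in both. Uncharacterized descriptions made up 20 of the 32 and 10 of the 14. The counting rule behind these lists is strict, so genes with a few stray counts fall outside it. A gene at 0 in all other libraries enters the tests only through its counts in the set that holds it. Its call and fold bound therefore describe the split and are no separate support for it.

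The most abundant of the NdhO-low-only genes were LOC117862125, with 344, 374 and 273 counts in the NdhO-low libraries, LOC117850811, with 387, 316 and 263 counts, and LOC117834788, with 330, 233 and 282 counts, each at 0 in the 6 other libraries. Against a floor of 3 counts over the PGR5-low set, they were at least 271-fold, 264-fold and 231-fold higher. LOC117855456 differed in that the libraries high in both had it too, with 131, 51 and 45 counts in the NdhO-low libraries, 0 in the PGR5-low libraries and 308, 208 and 445 counts in those high in both. It was at 0 counts in the 3 PGR5-low libraries and in no other library. Among the NdhO-low-only genes with a description, 4 are L10-interacting MYB domain-containing protein-like genes, none of them called. The highest of these (LOC117844328) had 47, 31 and 54 counts, and a cytochrome P450 87A3-like gene (LOC117845538) had 74, 57 and 38 counts, with 0 in the 6 other libraries. These genes were picked out after their values were seen.

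In the other direction, LOC117846273, annotated as a pseudogene in the RefSeq table, had 464, 479 and 483 counts in the PGR5-low libraries and 0 in the 6 others. It had the lowest adjusted p of all genes tested (edgeR adjusted p = 9.93e-04), and was at least 579-fold lower in the NdhO-low libraries against a floor of 3 counts over that set. An ETHYLENE-INSENSITIVE 2-like gene (LOC117838366), named for a central protein of ethylene signalling and annotated as a pseudogene in the RefSeq table, had 25, 22 and 16 counts in the PGR5-low, 0 in the NdhO-low and 27, 0 and 15 counts in the libraries high in both. Its adjusted p was above the threshold (edgeR adjusted p = 0.265). Uncharacterized gene LOC117849501 was close to the same pattern, at 0.326, 0 and 0 CPM against 8.06, 10.1 and 11.1 CPM, with 2.92, 4.15 and 6.1 CPM in the third set (edgeR adjusted p = 0.0143).

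**Figure D3:**
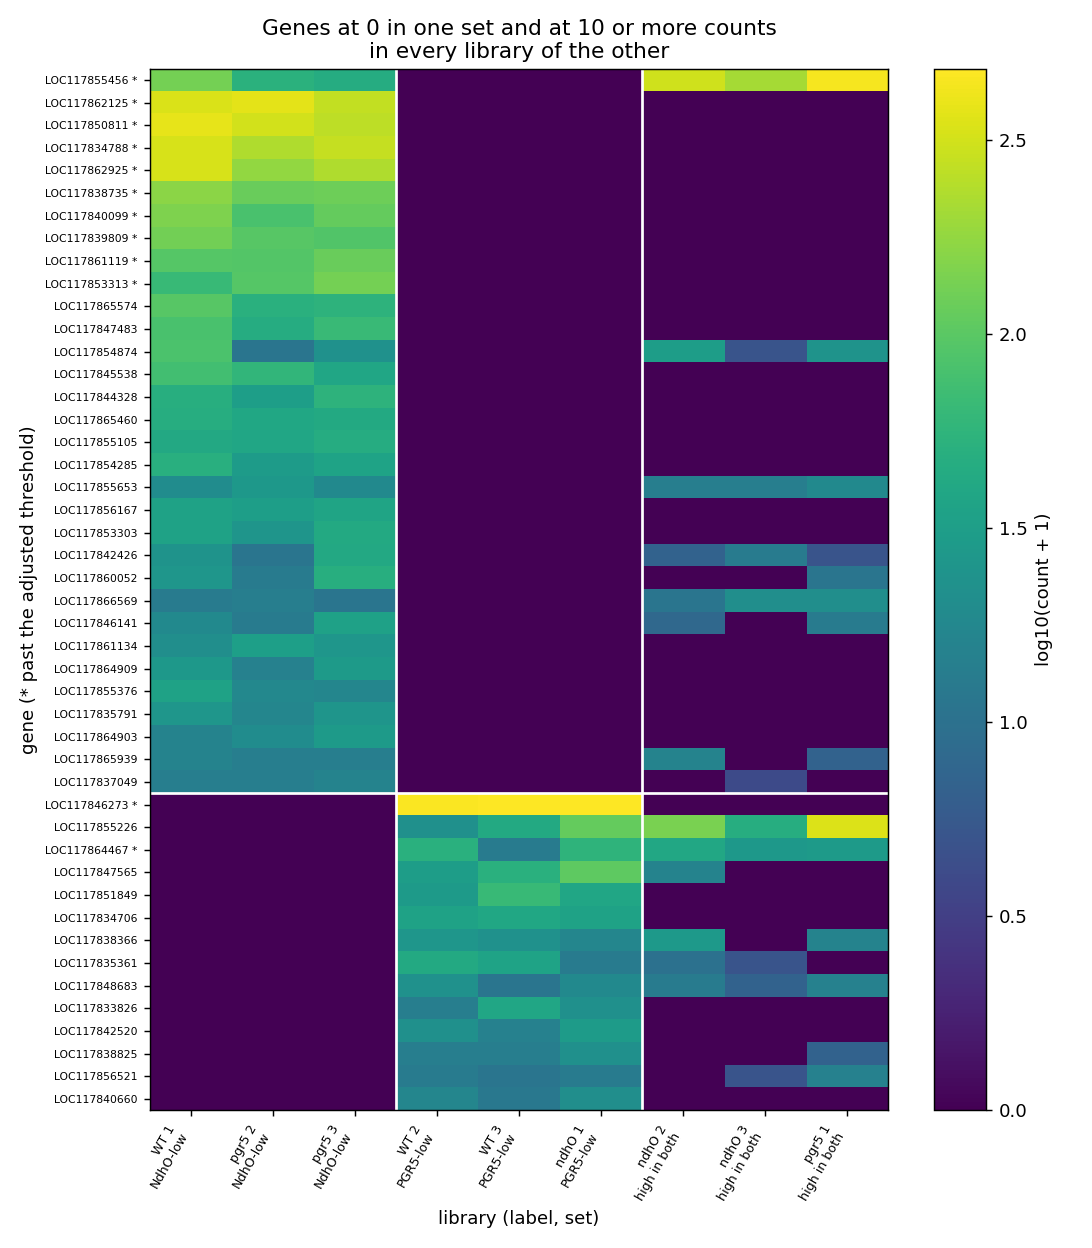
Counts of 46 genes in the 9 libraries as log10(count + 1), ordered by direction and total, with asterisks on called genes and white lines between sets. The upper 32 genes have 0 counts in all PGR5-low libraries and the lower 14 have 0 counts in all NdhO-low libraries; most of the upper block is also at 0 in the libraries high in both.

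The remaining called genes were uncharacterized and present in both sets. LOC117866813 stood at 78.1, 72.4 and 71.7 against 19.3, 36 and 29.3 CPM, with 19.8, 16.3 and 24 CPM in the third set, and LOC117839591 at 53.6, 53.1 and 46.9 against 23.8, 22.4 and 29.9 CPM, with 58.7, 55.5 and 50.9 CPM. Both were higher in the NdhO-low libraries, by 1.39 and 1.0 (edgeR adjusted p = 0.0215 and 0.0259). The third set sided with the PGR5-low libraries for the first gene and with the NdhO-low libraries for the second. LOC117836423, at 6.36, 4.86 and 2.75 against 17.2, 15 and 17.3 CPM, and LOC117836488, at 1.9, 2.84 and 1.29 against 7.92, 8.96 and 10.3 CPM, were lower (edgeR adjusted p = 0.0344 and 0.0462).

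None of the partner genes of NdhO and PGR5 was called. Of 19 other NDH-complex and assembly genes, 0 were called in either direction (lowest adjusted p = 0.480), and their median difference was 0.18. edgeR gave 1 of them an unadjusted p under 0.05, and DESeq2 and limma-voom called 0. NDH subunit B3 (LOC117846384) was the only one whose libraries did not overlap, at 309, 260.3 and 268 against 244, 172 and 217 CPM. This was 5.26% of the list with the NdhO-low libraries above, beside 6.97% over all genes. A second gene described as subunit B3 (LOC117847494) overlapped, at 138, 114 and 154 against 168, 127 and 92.1 CPM. The most abundant, subunit B5 (LOC117856781), stood at 865, 671 and 865 against 937, 516 and 775 CPM. NdhL (LOC117842009), which belongs with NdhO to subcomplex A of the NDH complex, stood at 669, 231 and 763 against 749, 269 and 299 CPM, high in WT 1, pgr5 3 and WT 2 and low in pgr5 2, WT 3 and ndhO 1. Of 3 genes on the list of PGR5 and PGRL1, the partner of PGR5, 0 were called by edgeR, with 0 at an unadjusted p under 0.05, and by DESeq2 and limma-voom. PGR5-like protein 1B (LOC117845758) did not overlap, at 1539.5, 1482 and 1538 against 1409, 1339.9 and 1108 CPM, a difference of 0.22 (SE 0.16, edgeR adjusted p = 0.715). It was 1 of the 3 genes (33.3%), beside 6.97% over all genes. A second gene of that description (LOC117847414) overlapped, at 56.4, 76.5 and 57.6 against 49, 61.4 and 40.5 CPM. The gene described as PGR5-like protein 1A (LOC117840897) stood at 1792, 1879.7 and 2062 against 1874, 1537 and 1301 CPM, a difference of 0.26 (SE 0.19, edgeR adjusted p = 0.714).

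The lists of photosystems, antenna, electron transport, Calvin-Benson cycle and photoprotection gave 0 called genes by edgeR, DESeq2 and limma-voom alike. None of 11 photosystem I, 20 photosystem II, 12 antenna, 20 electron carrier and ATP synthase, 32 Calvin-Benson or 26 photoprotection genes passed, and the numbers at an unadjusted p under 0.05 in edgeR were 0, 0, 0, 2, 1 and 0. Their median differences were 0.27, 0.24, 0.09, 0.20, 0.21 and 0.18, beside 0.02 over all genes. The counts of genes whose NdhO-low libraries lay above were 1, 0, 0, 0, 1 and 1, and below 0, 0, 0, 3, 2 and 0, beside 6.97% and 5.84% over all genes. These lists varied inside both sets: the photosystem I list had per-library medians of 0.35, -0.12 and 0.23 in the NdhO-low and 0.29, -0.39 and -0.36 in the PGR5-low libraries. The low libraries were pgr5 2, WT 3 and ndhO 1. With 1 library left out, the medians ran from 0.12 to 0.60 for photosystem I, 0.03 to 0.60 for photosystem II, -0.03 to 0.38 for the antenna, 0.06 to 0.29 for electron carriers and ATP synthase, 0.11 to 0.44 for the Calvin-Benson cycle and 0.06 to 0.29 for photoprotection. The highest value was without WT 2 in each, and the lowest without WT 3 (Calvin-Benson cycle, photosystem I, antenna) or without pgr5 3 (the others). The median of the NDH list was 0.002 without pgr5 3 and was 0.57 without WT 2.

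Of the 34 genes on the C4 cycle list, 0 were called by edgeR. edgeR gave 6 of them an unadjusted p under 0.05, and DESeq2 called 0 higher and 3 lower. In 3 (8.82%) the NdhO-low libraries lay above the PGR5-low and in 5 (14.7%) below, beside 6.97% and 5.84% over all genes. The list matches words in descriptions, so not every member belongs to the C4 cycle, for example 3-isopropylmalate dehydrogenase (LOC117850771). A pair of less abundant carboxylase genes had lower values in the NdhO-low libraries without passing the threshold. Phosphoenolpyruvate carboxylase 2 (LOC117843888), of the family that fixes bicarbonate, stood at 56.2, 70.7 and 51 against 103, 103 and 118 CPM (edgeR adjusted p = 0.0815). A housekeeping isozyme gene of the same enzyme (LOC117858341) stood at 2.77, 2.76 and 1.17 against 7.62, 7.93 and 18.5 CPM (edgeR adjusted p = 0.0689). The libraries of both genes did not overlap. In the set high in both they stood at 104, 124 and 148 CPM and 13.3, 13.4 and 11.9 CPM, beside the PGR5-low libraries. The most abundant carboxylase gene of the list, phosphoenolpyruvate carboxylase 1-like (LOC117854270), overlapped, at 28028, 20094 and 26362 against 29735, 26434 and 25451 CPM. Phosphoenolpyruvate carboxylase 1 (LOC117835252) overlapped too, at 46.4, 50.2 and 45.4 against 40.4, 41.3 and 56.1 CPM.

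Markers of bundle sheath and mesophyll were read as a check on the cell makeup of the discs. The 12 bundle sheath genes had 0 calls and a median of 0.40, which ran from 0.28 to 0.66 with 1 library left out. In 2 of them (16.7%) the NdhO-low libraries lay above the PGR5-low and in 0 below, beside 6.97% and 5.84% over all genes. The abundant NADP-dependent malic enzyme gene (LOC117857444), which releases CO2 in the bundle sheath, stood at 13908, 12891 and 12413 against 10810.0, 9841 and 9442 CPM without overlap (difference 0.36, SE 0.18, edgeR adjusted p = 0.528). Summed over the list, the NdhO-low libraries had 25593, 20881 and 25043 CPM and the PGR5-low libraries 21739, 15193 and 14939 CPM, so the sums overlapped between pgr5 2 and WT 2. The 9 mesophyll genes had a median of -0.15 and sums of 67013 to 73437 CPM against 70350.0 to 89494 CPM, again overlapping. Of 75 genes of dividing cells 0 were called, with a median of -0.001 and summed levels of 2364 to 2460.0 CPM against 2220.0 to 2482 CPM. Among 81 genes of epidermis and cuticle 0 were called, with a median of -0.10 and sums of 2950.0 to 3929 against 3652 to 4405 CPM. For the vascular list the sums were 719, 441 and 1107 against 884, 492 and 482 CPM. The part of cell makeup in the called differences was not tested.

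Cytosolic ribosomal proteins had the largest median of the lists, 0.65 over 195 genes, with 0 called by edgeR, 94 at an unadjusted p under 0.05, and 1 called higher by DESeq2. In 87 of them (44.6%) the NdhO-low libraries lay above the PGR5-low libraries and in 0 below, beside 6.97% and 5.84% over all genes. Summed, they reached 5649, 5081 and 9856 CPM in the NdhO-low and 4622, 3928 and 4744 CPM in the PGR5-low libraries, with 6015, 4750.0 and 4481 CPM in those high in both. pgr5 3 alone was far above the rest, and without it the median was 0.27. The most abundant gene, 60S ribosomal protein L5-1 (LOC117858480), stood at 104, 84.8 and 228 against 85.3, 69.8 and 97.1 CPM and overlapped. Reads of near-identical ribosomal genes may have been divided between copies, so single members are uncertain.

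Jasmonate genes, which make and answer a wound and defence hormone, had a median of 0.38 over 30 genes, 0 called by edgeR (11 at an unadjusted p under 0.05, and 4 higher and 2 lower by DESeq2), 7 without overlap above (23.3%) and 2 below (6.67%), beside 6.97% and 5.84% over all genes. TIFY 10b-like (LOC117845399), of the family of repressors that jasmonate signalling induces, stood at 77.1, 48.5 and 82.9 against 20.7, 25.8 and 33.9 CPM, with 28.9, 25.3 and 24.3 CPM in the third set. All 3 NdhO-low libraries were above the 6 others, and the adjusted p was just outside the threshold (difference 1.37, SE 0.23, edgeR adjusted p = 0.0508). Lipoxygenase 2.1-like (LOC117851960), of the family that starts jasmonate synthesis, stood at 162, 5.11 and 123 against 0.953, 2.58 and 1.5 CPM. WT 1 and pgr5 3 were far above pgr5 2, which was still above the PGR5-low libraries (edgeR adjusted p = 0.186). Allene oxide synthase 2-like (LOC117839469), the next enzyme, was likewise high in WT 1 and pgr5 3 and low in pgr5 2, at 18.7, 0.486 and 9.36 against 0.22, 1.38 and 2.43 CPM, and overlapped. The abundant lipoxygenase 2.3-like gene (LOC117844140) was in the opposite order, at 2046, 2569 and 1987 against 2700.2, 3693 and 3748 CPM, without passing (edgeR adjusted p = 0.264).

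Reactive oxygen scavenging genes had a median of -0.11 over 38 genes and 0 calls by edgeR, 8 at an unadjusted p under 0.05 and 3 lower by DESeq2, with 0 without overlap above and 7 below (18.4%), beside 6.97% and 5.84% over all genes. Catalase isozyme 1 (LOC117851458), which breaks down hydrogen peroxide in peroxisomes, stood at 248, 287 and 191 against 325, 469 and 503 CPM, with 267, 273 and 289 CPM in the third set. The NdhO-low libraries were below the PGR5-low libraries and overlapped the third set (edgeR adjusted p = 0.135). Mitochondrial manganese superoxide dismutase 3.1 (LOC117850226) stood at 48.8, 43.6 and 49.2 against 70.1, 58.4 and 75.7 CPM in the same order (edgeR adjusted p = 0.221).

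Phenylpropanoid, lignin and flavonoid genes had 0 calls by edgeR among 130 (20 at an unadjusted p under 0.05, and 2 higher and 7 lower by DESeq2), a median of -0.11, 6 without overlap above (4.62%) and 21 below (16.2%), beside 6.97% and 5.84% over all genes. A 4-coumarate-CoA ligase-like gene (LOC117840893) stood at 71.2, 80.4 and 61.7 against 112, 145 and 111 CPM and a caffeoylshikimate esterase-like gene (LOC117850404) at 2.34, 2.59 and 2.17 against 5.5, 11.9 and 7.42 CPM (edgeR adjusted p = 0.0815 and 0.0826). Neither passed the threshold.

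The other lists gave no edgeR call in either direction, with 0 to 28 genes at an unadjusted p under 0.05 and at most 4 called in a direction by DESeq2. They were photorespiration, heat shock proteins and chaperones, chloroplast ribosome, mitochondrial respiration, starch and sugar transport, nitrogen and sulfur, chlorophyll and carotenoid synthesis, clock and light signalling, abscisic acid and dehydration, aquaporins and tonoplast transport, pentatricopeptide proteins, NLR immune receptors, defence and stress transcription factors, and senescence and autophagy. Their medians ran from -0.17 for aquaporins to 0.29 for the chloroplast ribosome, which was -0.08 without pgr5 3. The chloroplast ribosome list moved with the libraries rather than the sets, with per-library medians of 0.13, -0.57 and 0.66 in the NdhO-low and 0.33, -0.78 and -0.17 in the PGR5-low libraries. Most abundant members overlapped, among them glycolate oxidase GLO1 (LOC117838684) of photorespiration at 1131, 1199 and 998 against 1146, 1319.9 and 1169.8 CPM and NCED1 (LOC117834674), the committed enzyme of abscisic acid synthesis, at 1164, 2252 and 1079 against 1386, 2489 and 2114 CPM.

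**Figure D4:**
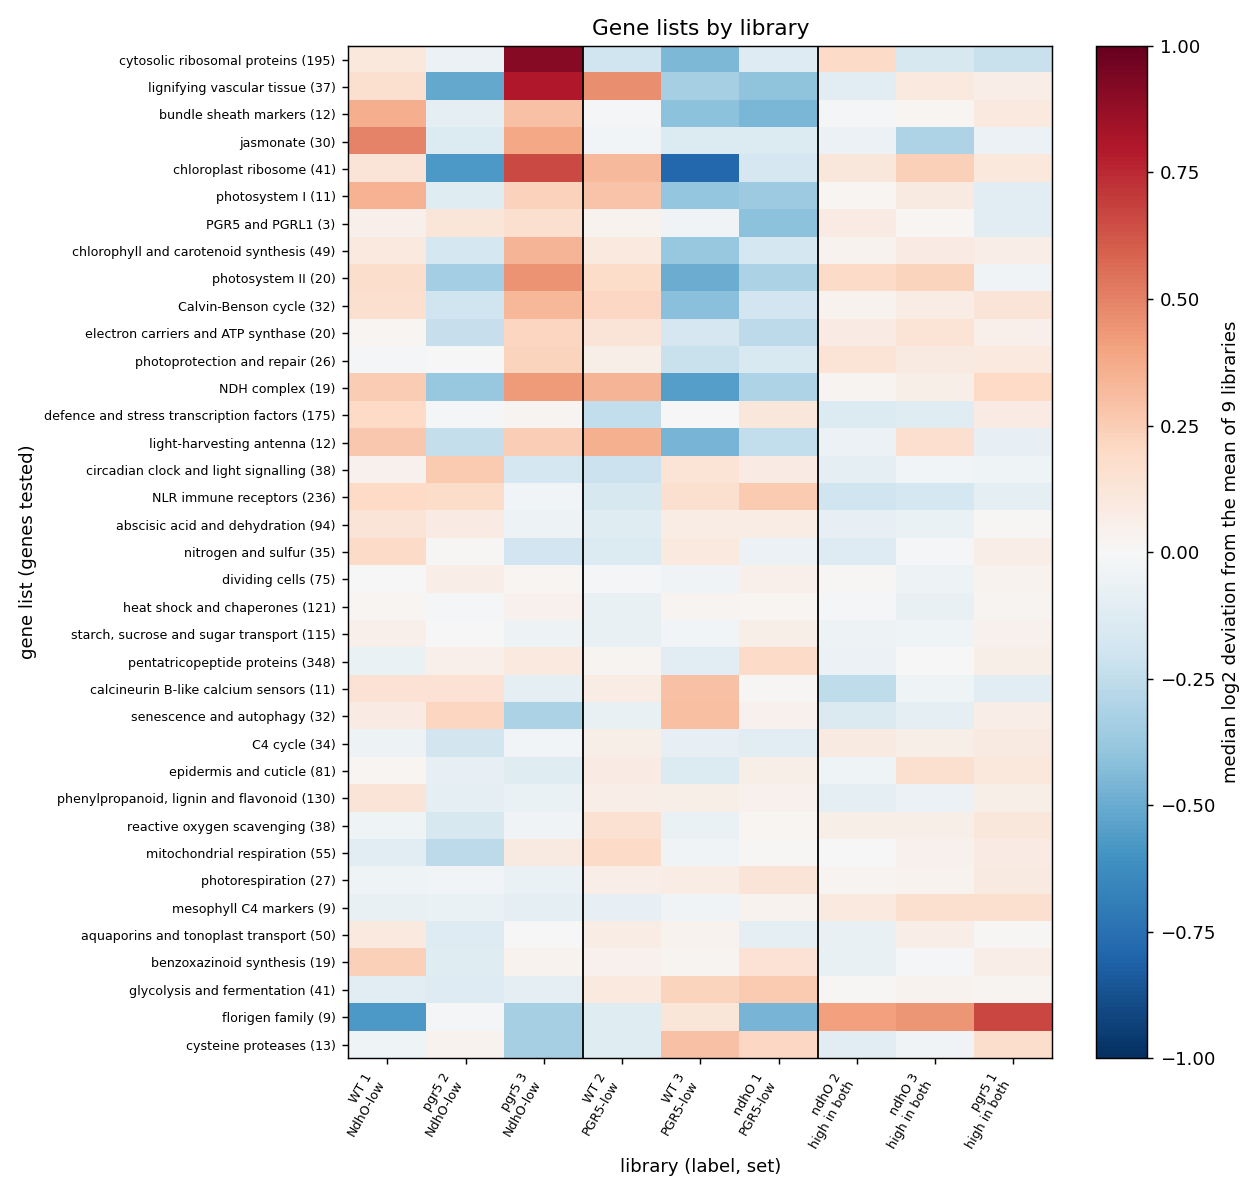
Median log2 deviation from each gene's mean over 9 libraries for 37 gene lists (log2 of CPM plus 1), by library, with black lines between sets and lists sorted by their fitted median difference. Most photosynthesis lists are low in pgr5 2, WT 3 and ndhO 1, and the ribosomal protein list is highest in pgr5 3.

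**Figure D5:**
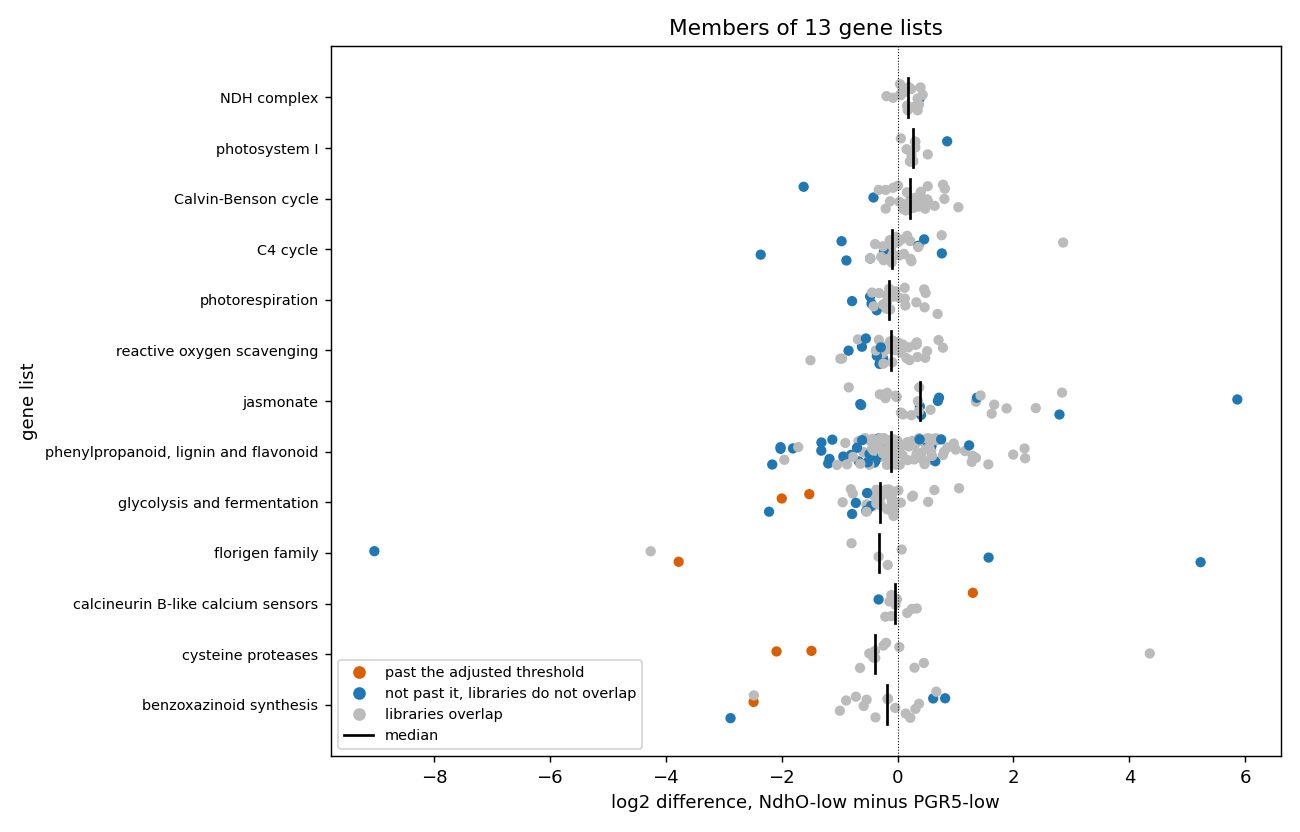
Fitted log2 difference, NdhO-low minus PGR5-low, of each gene in 13 lists, with called genes in orange, other genes without overlap in blue, overlapping genes in grey and a bar at the median. The called genes are 2 each of the glycolysis and fermentation and the cysteine protease lists and 1 each of the florigen, calcium sensor and benzoxazinoid lists; values of genes with 0 counts in a set depend on the prior count of the fit.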

How the data were processed

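Polyadenylated RNA of leaf discs, with an RNA integrity score above 8.5 in every sample, was sequenced from 9 samples with a stranded kit, per the labels' protocols. Tools named in the submitters' processing notes are limma 3.62.2, edgeR 4.4.1, StringTie 2.2.3, Trim Galore 0.6.7 and FastQC 0.11.9. No aligner or genome build is given in the sources used here, and no coordinates or sequences are printed. The authors deposited whole-number counts per gene for 17987 genes, which were used without change. The deposited table also holds corrected log2 CPM and log2 fold changes, t and B statistics read as a score, and p-values of the authors' own comparisons by label, per the file headers. None of these is reported here. The count columns of the edited plants carry an extra number that the labels leave unexplained, and each was assigned by its genotype and last number.

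The members and gene lists were chosen with earlier results of these data known. A script formed the sets from CPM on column totals at 100 CPM. The main test was run with edgeR 4.0.16 in R 4.3.3 (TMM scaling, default filter, robust quasi-likelihood) in 1 fit over 9 libraries with 3 sets, and p-values were adjusted by Benjamini-Hochberg over 17984 genes. NdhO, PGR5 and 1 row with no description (7.52e-05% of the counts) were left out of the tests. The common biological coefficient of variation was 0.338. Levels are CPM on column totals, and SEs come from the F statistic. The script was tested on simulated data.

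Gene lists are words in the deposited descriptions: 32 lists from earlier work and 5 made after values were seen (florigen family, benzoxazinoid synthesis, glycolysis and fermentation, calcineurin B-like sensors, cysteine proteases). They were described by counts and medians, with no test of a list. Named genes were NdhO, PGR5 and their neighbours, the 12 largest differences in each direction among called, non-overlapping genes with a description and a mean of at least 5 CPM in the higher set, and for each list its called genes or its most abundant member. Others were chosen after their values were seen. RefSeq identifiers, needed to find neighbouring genes, matched 17558 genes. Floors of 3 counts cover counting error only. The labels call the replicates biological. The p-values of the main fit rest on the spread within sets over all 9 libraries, which includes the less varied set high in both. The fit of only the 6 libraries had a common biological coefficient of variation of 0.358. Alternatives were other scalings, filters, thresholds, DESeq2 1.42.0, limma-voom (limma 3.58.1), a fit of 6 libraries, a replicate block, a label term and leaving out each library.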

Additional observations from a re-analysis of the deposited data

How the results depend on the processing

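Against 15 genes higher and 17 lower, RLE scaling gave 15 and 16, and upper-quartile scaling 16 and 17. A filter of 1 CPM in 3 libraries gave 15 and 17. The default filter removed no gene, so the fit without a filter repeated the main fit. DESeq2 called 139 higher and 195 lower, limma-voom 7 and 14, and the fit of only the 6 libraries 8 and 3. An adjusted p of 0.01 left 5 and 1, 0.10 gave 16 and 25, and a 2-fold minimum 12 and 17. With the genotype label as a term edgeR called 0 and 0, with 1093 genes at an unadjusted p under 0.05. Leaving out each library in turn gave 6 to 58 higher and 2 to 53 lower. Sets formed at 50 or 200 CPM were the same sets, so their counts could not differ. Libraries did not overlap in 2304 genes on column totals and in 2414 on TMM-scaled totals. The cause of these shifts was not tested.

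The replicate numbers did not pair the libraries: correlations between same-numbered libraries of different sets, of their deviations from the set means, ran from -0.263 to 0.207. With the replicate block, edgeR called 0 higher and 0 lower (lowest adjusted p = 0.111), with 1498 genes at an unadjusted p under 0.05.

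Of 1320 alternative values of single named genes, 1078 kept their side of the threshold and direction where called, 241 lost a call and 1 gained a call, and none of the called genes turned its direction. Medians of 17 lists changed sign in 38 of 740 list alternatives. Both totals include the fit without a filter and the sets at 50 or 200 CPM, which repeat the main fit. With 3 libraries a set and a biological coefficient of variation of 0.338, many smaller differences may have gone uncalled.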
